A study of Homo sapiens with 4 samples.

Results

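Antisense long noncoding transcripts are RNAs made from the strand opposite to a named gene, and the naming convention marks them with that gene's symbol followed by -AS and a number. The deposited expression table listed 778 such names among 57659 genes, and the 123 whose mean over the 4 libraries was at least 10 are described here. A sense gene, named before the dash, was found for 116 of them. Sense genes are described as a set, and singly for part of the transcripts named. The 123 transcripts were chosen by their mean level over all 4 libraries, which near the limit depends on the difference between the groups. For 15 of them 1 group averaged under 10, the control group in 12 and the SLFN5 siRNA group in 3. Those 15 entered through the other group. The RNA came from 786-0, an established human renal cell carcinoma line. One group of 2 libraries was transfected with siRNA against SLFN5, a member of the Schlafen family of interferon-regulated proteins, and the other group of 2 libraries with a control siRNA. Both groups are this 1 cell line, and no label gives the time after transfection. Polyadenylated RNA was made into TruSeq libraries with a kit that does not mark strand, so reads from a gene and from its antisense partner cannot be told apart where their exons overlap.

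Antisense transcripts are usually made by RNA polymerase II, capped, spliced and polyadenylated like messenger RNAs, but many stay in the nucleus and are short-lived. Many start close to the sense gene's own start, at a promoter that fires in both directions, and their products are among the substrates of the nuclear RNA exosome. Some are known to act on the neighbouring gene in cis, through chromatin or by base pairing with its messenger, and others act elsewhere as RNAs in their own right.

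The values are equalised counts, read counts per gene that the authors' software had adjusted to one common library size. That adjustment did not follow total reads alone, so the totals of equalised counts still differ between libraries. A read counted as 1.02 and 1.16 equalised counts in the SLFN5 siRNA libraries and 0.582 and 1.45 in the control libraries. The whole read counts recovered behind them came to 17117659 and 14700669 reads in the SLFN5 siRNA libraries and 31905328 and 13187517 in the control libraries. SLFN5 itself had 167 and 118 equalised counts in the SLFN5 siRNA libraries, against 420.3 and 353 in the control libraries, and fell by 1.45 on the log2 scale (SE 0.21). The 6 renal carcinoma markers PAX8, PAX2, VIM, KRT8, KRT18 and CA12 all averaged at least 10 equalised counts, and 0 of 3 leukocyte and 0 of 3 endothelial markers did. Of 3 fibroblast markers, LUM and PDGFRB did, and the summed level of the 3 was 51.1 and 37.4 equalised counts in the SLFN5 siRNA libraries against 118 and 78.8 in the control libraries; DCN had 1 recovered read in all. The part of these markers in the results was not tested. Whether the 2 libraries of each group stem from separate cultures is not stated, so p-values measure only the spread between these libraries, which may be technical. Each control library shares an identifier in its title with 1 SLFN5 siRNA library, and no label says what it marks. The main fit and the statements on overlap of groups leave this pairing out. With it as a block, 30 antisense transcripts were higher and 4 lower, against 21 and 2 in the main fit.

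Where antisense transcripts changed after SLFN5 siRNA, most were higher. Of 122 tested, 21 rose and 2 fell, MAGI2-AS3 and HOXD-AS2, at a limma adjusted p under 0.05, and 99 did not pass. That is 17.2% higher and 1.64% lower, against 13.3% higher and 16.3% lower among all 15640 tested genes, of which 29.6% passed in either direction. In numbers these were 2086 higher and 2544 lower genes, or 2800 and 1823 with library totals as the only scaling, a setting chosen after seeing the data that moves the median of all genes by 0.118 on the log2 scale. That setting gave 30 higher antisense transcripts and 1 lower, with a median of 0.55 beside 0.08 for all tested genes. Most of the antisense transcripts were rare: 99 of the 123 averaged under 100 equalised counts, and among all tested genes averaging 10 to 100 the shares were 7.53% higher and 3.37% lower. The median log2 change of the antisense transcripts was 0.42 (quartiles -0.13 and 0.78), against -0.03 (quartiles -0.39 and 0.37) for all tested genes and 0.09 for all tested genes averaging 10 to 100. The log2 change was positive for 85 antisense transcripts and negative for 37, a positive share of 69.7% against 47.6% of all tested genes. In bulk RNA, fewer cells that make a transcript and less of it per cell cannot be told apart.

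The direction was also visible in the levels of single libraries. Both SLFN5 siRNA libraries lay above both control libraries for 55 antisense transcripts (45.1% of those tested, against 30.5% of all tested genes) and below both for 14 (11.5%, against 34.1%). The median level of the 123 transcripts was 49.1 and 46.3 equalised counts in the SLFN5 siRNA libraries, against 33.8 and 35.0 in the control libraries. Together they held 0.133% and 0.153% of all equalised counts in the SLFN5 siRNA libraries, against 0.101% and 0.112% in the control libraries. An unadjusted p under 0.05 was reached by 37 transcripts, 32 of them higher (26.2% of those tested, against 18.6% of all tested genes) and 5 lower (4.10%, against 22.0%). The 99 transcripts that did not pass had log2 changes between -1.32 and 1.74.

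**Figure D1:**
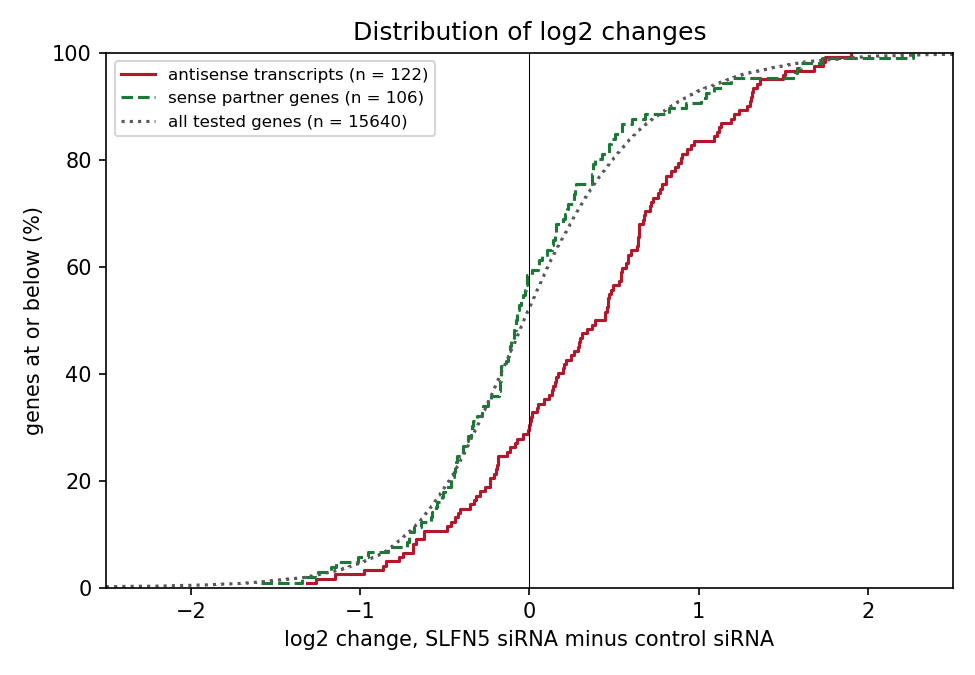
Log2 change of SLFN5 siRNA over control siRNA on the x axis and the percent of genes at or below that change on the y axis, for 122 antisense transcripts (solid), 106 sense partner genes (dashed) and 15640 tested genes (dotted). The antisense curve lies to the right, with a median of 0.42 against -0.08 for the sense partners and -0.03 for all tested genes.

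The number that rose depended on which libraries were fitted, as it did among all tested genes. Leaving out each library in turn gave 12 to 18 higher antisense transcripts and 1 to 3 lower ones, with 3 lower without SLFN5 siRNA 1 and 1 lower without SLFN5 siRNA 2 or Control 1. The lowest count of higher transcripts, 12, came without Control 2, the shallowest library, and 13 rose without SLFN5 siRNA 2. Without the intensity trend in limma, 8 rose and 1 fell, and among all 15640 tested genes 672 were then higher and 510 lower. Of the 23 that passed, 8 passed in each of these 4 fits: FGD5-AS1, MAGI2-AS3, KIAA1984-AS1, MMP24-AS1, BAIAP2-AS1, STXBP5-AS1, CTBP1-AS1 and ARHGAP5-AS1. Of all 23, 9 lost the call without SLFN5 siRNA 1, 9 without SLFN5 siRNA 2, 6 without Control 1 and 11 without Control 2.

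The promoters of those 8 transcripts are shown because they passed with each library left out in turn. Without the intensity trend, FGD5-AS1, KIAA1984-AS1 and MMP24-AS1 did not pass (limma adjusted p = 0.0791, 0.0703 and 0.0519). Each runs from 250 bases before to 50 bases after the RefSeq start on GRCh38.p14, and is written 5′ to 3′ on the transcript's own strand. Capitals mark GC boxes (GGGCGG) and CCAAT boxes (CCAAT), on either strand. RefSeq lists KIAA1984-AS1 as CCDC183-AS1, MMP24-AS1 as MMP24OS, BAIAP2-AS1 as BAIAP2-DT and CTBP1-AS1 as CTBP1-DT. The windows are chr3:14948392-14948691 on the minus strand for FGD5-AS1, chr7:79452707-79453006 on the plus strand for MAGI2-AS3, chr9:136808799-136809098 on the minus strand for KIAA1984-AS1 and chr20:35278073-35278372 on the minus strand for MMP24-AS1. Those of the other 4 are chr17:81034670-81034969 on the minus strand for BAIAP2-AS1, chr6:147204565-147204864 on the minus strand for STXBP5-AS1, chr4:1249190-1249489 on the plus strand for CTBP1-AS1 and chr14:32076650-32076949 on the minus strand for ARHGAP5-AS1.
FGD5-AS1: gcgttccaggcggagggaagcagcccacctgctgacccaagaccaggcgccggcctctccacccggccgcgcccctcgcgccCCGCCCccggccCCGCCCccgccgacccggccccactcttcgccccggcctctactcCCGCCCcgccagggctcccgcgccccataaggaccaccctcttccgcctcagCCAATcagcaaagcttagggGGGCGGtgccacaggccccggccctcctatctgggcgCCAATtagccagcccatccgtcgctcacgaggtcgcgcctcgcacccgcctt
MAGI2-AS3: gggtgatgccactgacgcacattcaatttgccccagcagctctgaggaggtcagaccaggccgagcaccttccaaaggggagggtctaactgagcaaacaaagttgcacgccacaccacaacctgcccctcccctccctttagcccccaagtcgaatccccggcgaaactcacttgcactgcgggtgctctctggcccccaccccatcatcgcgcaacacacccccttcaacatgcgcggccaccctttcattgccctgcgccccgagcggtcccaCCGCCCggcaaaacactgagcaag
KIAA1984-AS1: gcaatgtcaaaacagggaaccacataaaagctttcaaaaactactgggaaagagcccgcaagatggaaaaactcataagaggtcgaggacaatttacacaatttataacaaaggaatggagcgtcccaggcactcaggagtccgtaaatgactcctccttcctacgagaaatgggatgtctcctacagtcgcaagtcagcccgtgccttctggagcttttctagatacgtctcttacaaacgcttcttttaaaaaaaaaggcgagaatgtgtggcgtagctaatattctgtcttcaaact
MMP24-AS1: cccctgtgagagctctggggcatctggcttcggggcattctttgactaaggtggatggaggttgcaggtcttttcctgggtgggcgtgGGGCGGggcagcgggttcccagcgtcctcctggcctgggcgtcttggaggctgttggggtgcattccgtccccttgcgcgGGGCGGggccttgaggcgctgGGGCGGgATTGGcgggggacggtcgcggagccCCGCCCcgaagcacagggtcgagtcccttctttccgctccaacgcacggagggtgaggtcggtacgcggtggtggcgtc
BAIAP2-AS1: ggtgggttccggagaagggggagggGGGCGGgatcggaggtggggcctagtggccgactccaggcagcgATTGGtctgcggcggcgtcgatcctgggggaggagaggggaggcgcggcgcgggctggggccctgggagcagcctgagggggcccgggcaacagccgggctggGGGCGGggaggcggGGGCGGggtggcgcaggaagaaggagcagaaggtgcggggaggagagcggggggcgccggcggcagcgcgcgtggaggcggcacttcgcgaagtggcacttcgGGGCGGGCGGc
STXBP5-AS1: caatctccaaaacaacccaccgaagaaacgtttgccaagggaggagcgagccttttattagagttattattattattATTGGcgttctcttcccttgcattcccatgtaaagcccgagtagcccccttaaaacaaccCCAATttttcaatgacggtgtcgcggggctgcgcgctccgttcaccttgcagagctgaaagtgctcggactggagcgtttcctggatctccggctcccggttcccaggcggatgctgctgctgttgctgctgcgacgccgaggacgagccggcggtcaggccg
CTBP1-AS1: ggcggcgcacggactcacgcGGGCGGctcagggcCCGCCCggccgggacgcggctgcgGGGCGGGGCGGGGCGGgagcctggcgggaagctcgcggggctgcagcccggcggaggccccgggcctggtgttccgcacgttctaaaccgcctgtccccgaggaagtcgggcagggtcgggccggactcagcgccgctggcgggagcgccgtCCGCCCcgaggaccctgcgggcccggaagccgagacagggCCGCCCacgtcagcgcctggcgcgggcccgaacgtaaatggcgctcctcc
ARHGAP5-AS1: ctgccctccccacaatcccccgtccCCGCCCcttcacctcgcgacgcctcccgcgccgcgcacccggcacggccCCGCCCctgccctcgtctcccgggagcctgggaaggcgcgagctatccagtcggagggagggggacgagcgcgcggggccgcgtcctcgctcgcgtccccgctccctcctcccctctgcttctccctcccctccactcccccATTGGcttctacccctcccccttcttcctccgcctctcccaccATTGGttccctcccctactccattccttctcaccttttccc

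These 8 windows differ widely in base composition. CTBP1-AS1 holds 7 GC boxes and 46 CG dinucleotides at 79.3% G and C, and BAIAP2-AS1 holds 5 GC boxes at 77.3%. KIAA1984-AS1 holds neither motif, at 43.3% G and C with 11 CG dinucleotides. STXBP5-AS1 has 2 CCAAT boxes and 0 GC boxes, and MAGI2-AS3, the transcript of the 8 that fell, has 1 GC box and 0 CCAAT boxes.

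RefSeq promoters were matched for 103 of the 123 antisense transcripts, 19 of them among the 21 that rose. A GC box stood in 54.4% of the 103 and in 10 of the 19, against 45.0% of 35116 RefSeq promoters of the same length. A CCAAT box stood in 35.0% of the 103 and in 8 of the 19, against 34.6% of all promoters. The TATA box TATAAA was found in 5.83% of the 103 and in 3 of the 19, against 11.5% of all promoters. The AP-1 motif TGANTCA stood in 6.80% of the 103 and in 1 of the 19, against 7.71%. The interferon response element motif stood in 3.88% of the 103 and in 1 of the 19, against 3.57% of all promoters. All motifs were searched on both strands as letters only, and no motif's letters contain another's. The median share of G and C was 64.0% for the antisense promoters and 65.7% for those that rose, against 58.7% for all promoters. Among 99 promoters of sense partners it was 67.0%, with a GC box in 63.6%, a CCAAT box in 29.3%, the TATA box in 9.09%, the AP-1 motif in 9.09% and the interferon response element motif in 4.04%.

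The transcripts with the largest increases among those that passed lie at genes of unlike function. ZEB1-AS1, antisense to the zinc-finger factor ZEB1 of epithelial-mesenchymal transition, had 38.8 and 20.2 equalised counts in the SLFN5 siRNA libraries, against 7.67 and 6.01 in the control libraries. The groups did not overlap, and the log2 change was 1.90 (SE 0.55, limma adjusted p = 0.0229). Its control mean lies under 10, so it entered the description through its level in the SLFN5 siRNA libraries. Its limma adjusted p was 0.151 without SLFN5 siRNA 1 and 0.0732 without Control 2. CYP1B1-AS1, antisense to a cytochrome P450 monooxygenase, likewise had a control mean under 10. It had 33.7 and 29.2 equalised counts after SLFN5 siRNA, against 8.69 and 8.72 in controls, without overlap (log2 change 1.74, SE 0.48, limma adjusted p = 0.0185). Its limma adjusted p was 0.0766 without SLFN5 siRNA 1 and 0.0583 without Control 2. ARHGAP5-AS1 had 51.1 and 46.6 equalised counts after SLFN5 siRNA, against 14.5 and 14.5 in controls. It rose by 1.68 on the log2 scale (SE 0.40, limma adjusted p = 0.00868), and its groups were far apart relative to the spread within each. ARHGAP5 had a log2 change of -0.05 and did not pass. GENCODE 29 places 16.5% of the exon bases of ARHGAP5-AS1 in ARHGAP5 exons.

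STXBP5-AS1, BAIAP2-AS1 and CTBP1-AS1 passed in each of the 15 other fits tried, as did ARHGAP5-AS1 and MAGI2-AS3. STXBP5-AS1, antisense to tomosyn, a regulator of vesicle fusion, had 121 and 151 equalised counts in the SLFN5 siRNA libraries, against 51.7 and 52.1 in the control libraries (log2 change 1.36, SE 0.27, limma adjusted p = 0.00294). BAIAP2-AS1, which starts beside the gene of an actin and membrane adaptor protein and shares no exon base with it, had 353 and 315 after SLFN5 siRNA, against 155 and 114 in controls (log2 change 1.32, SE 0.21, limma adjusted p = 0.000828). CTBP1-AS1, antisense to a transcriptional corepressor, had 119.6 and 119 after SLFN5 siRNA, against 56.5 and 44.2 in controls (log2 change 1.24, SE 0.28, limma adjusted p = 0.00609). In all 3 the lower of the SLFN5 siRNA values was more than the higher of the control values, and their sense genes did not pass, with log2 changes of 0.08 for STXBP5, 0.28 for BAIAP2 and -0.12 for CTBP1.

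Other increases of similar size lost their call when a library was left out. TAPT1-AS1 had 35.8 and 36.0 equalised counts after SLFN5 siRNA, against 15.4 and 11.9 in controls (log2 change 1.34, SE 0.44, limma adjusted p = 0.0377). Its limma adjusted p was 0.0974 without SLFN5 siRNA 1, 0.0975 without SLFN5 siRNA 2, 0.0656 without Control 1 and 0.188 without Control 2, so it passed in 0 of the 4 fits with a library left out. SLC2A1-AS1, antisense to the glucose transporter GLUT1, had 70.5 and 59.5 after SLFN5 siRNA, against 26.2 and 24.8 in controls (log2 change 1.31, SE 0.35, limma adjusted p = 0.0141). Its limma adjusted p was 0.0686 without SLFN5 siRNA 1 and 0.0532 without Control 2. SBF2-AS1, antisense to a myotubularin-related protein, had 67.5 and 65.1 after SLFN5 siRNA, against 33.8 and 24.0 in controls (log2 change 1.19, SE 0.35, limma adjusted p = 0.0230), and its limma adjusted p was 0.0750 without SLFN5 siRNA 1, 0.0607 without SLFN5 siRNA 2 and 0.160 without Control 2. The groups of all 3 were apart in every library, with the SLFN5 siRNA libraries the higher. SBF2 had a log2 change of -0.06 and did not pass, and 32.2% of the exon bases of SBF2-AS1 lie in SBF2 exons.

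A pair of antisense transcripts of DLGAP1, a postsynaptic scaffold gene, rose together. DLGAP1-AS2 had 95.2 and 153 equalised counts after SLFN5 siRNA, against 31.5 and 75.2 in controls (log2 change 1.29, SE 0.40, limma adjusted p = 0.0292). DLGAP1-AS1 had 104 and 139 after SLFN5 siRNA, against 63.0 and 48.7 in controls (log2 change 1.11, SE 0.29, limma adjusted p = 0.0128). The groups did not overlap for either, but the control values of DLGAP1-AS2 lay far apart. Without Control 1 its log2 change was 0.67, and its limma adjusted p was 0.171 without SLFN5 siRNA 2 and 0.186 without Control 1. For DLGAP1-AS1 the limma adjusted p was 0.0770 without SLFN5 siRNA 2 and 0.0725 without Control 2. DLGAP1 was too low to be tested, at 2.04 and 0.0386 equalised counts after SLFN5 siRNA and 3.63 and 1.69 in controls, and both transcripts overlap its gene without sharing an exon base with it in GENCODE 29.

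**Figure D2:**
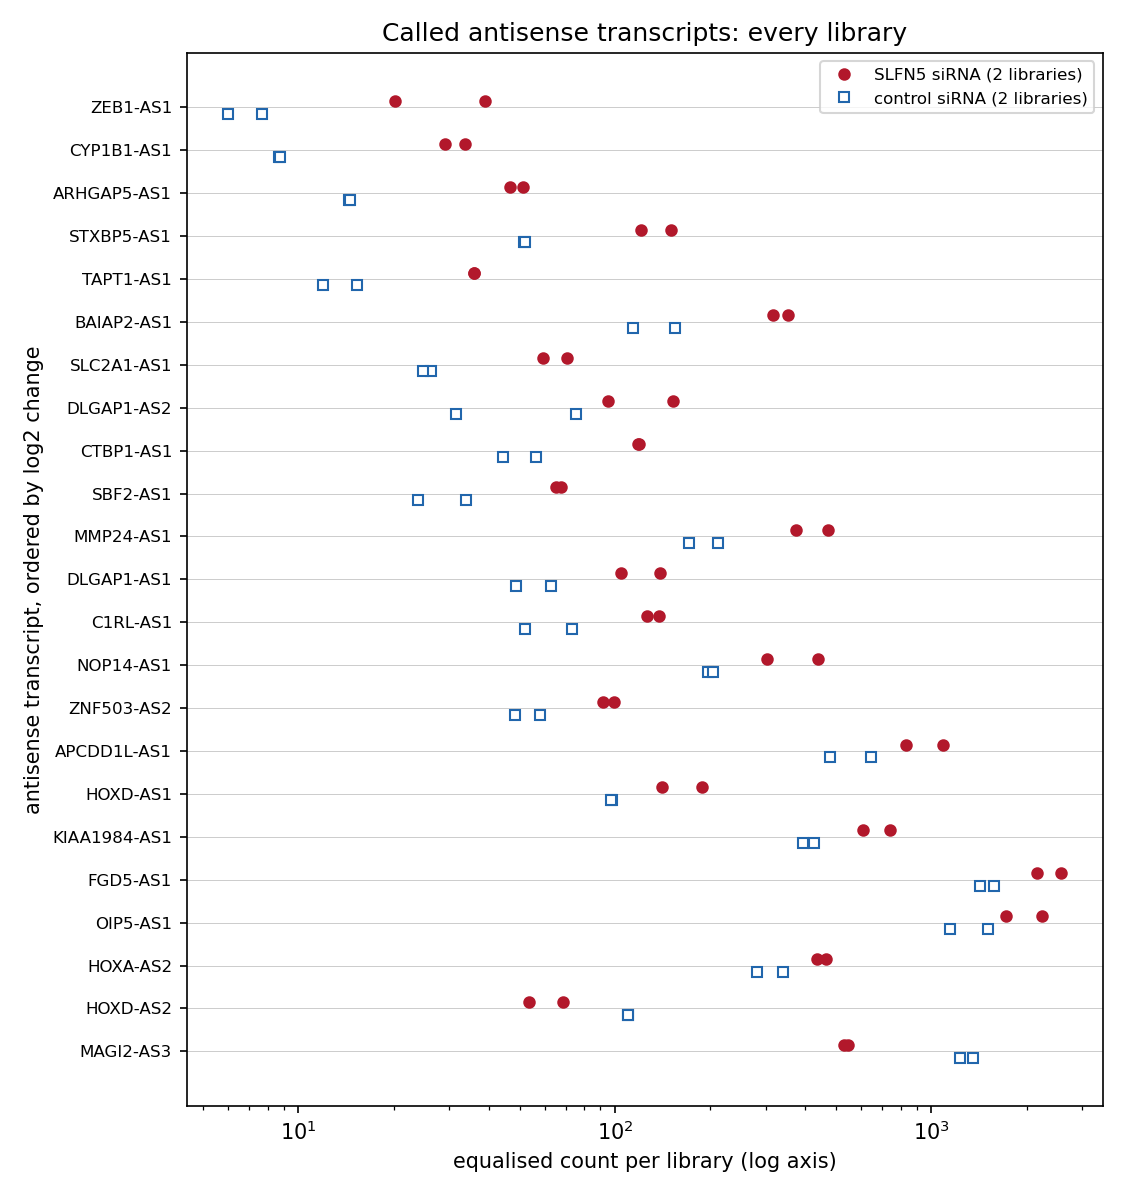
Equalised counts in every library (x axis, log scale) for the 23 antisense transcripts that passed, ordered by log2 change, with filled circles for the 2 SLFN5 siRNA libraries and open squares for the 2 control libraries. For 21 transcripts both circles lie right of both squares, and for MAGI2-AS3 and HOXD-AS2 both lie left.

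MAGI2-AS3 fell by more than any other antisense transcript that passed. Its gene overlaps MAGI2, a scaffold gene of cell junctions, on the opposite strand. GENCODE 29 sets their nearest starts 9 bases apart and places 1.48% of its exon bases in MAGI2 exons. The windows of the first listed RefSeq promoters of MAGI2-AS3 and MAGI2 share 0 bases. MAGI2-AS3 had 544 and 531 equalised counts in the SLFN5 siRNA libraries, against 1234 and 1351 in the control libraries, which is 537 ± 9.12 against 1293 ± 83.1 (SD, n = 2 each). The groups were far apart and tight, with a log2 change of -1.26 (SE 0.13, limma adjusted p = 6.08e-05), and it passed in each of the 15 other fits tried. MAGI2 was scarce, at 30.6 and 5.27 after SLFN5 siRNA and 19.0 and 13.6 in controls, and did not pass (log2 change -0.28).

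The HOX clusters hold developmental patterning genes, and their antisense names carry the cluster and not a single gene. HOXD-AS2 had 68.5 and 53.7 equalised counts after SLFN5 siRNA, against 109.9 and 110.0 in controls, and fell by 0.85 on the log2 scale (SE 0.27, limma adjusted p = 0.0350). From the same cluster, HOXD-AS1 went the other way, with 188 and 141 after SLFN5 siRNA, against 98.3 and 97.1 in controls (log2 change 0.73, limma adjusted p = 0.0381). HOXA-AS2 had 465 and 436 after SLFN5 siRNA, against 339 and 280.5 in controls (log2 change 0.54, limma adjusted p = 0.0291). The groups did not overlap in any of the 3, and each call was lost without at least 1 library. The limma adjusted p was 0.114 without SLFN5 siRNA 2, 0.130 without Control 1 and 0.156 without Control 2 for HOXD-AS2, 0.195 without SLFN5 siRNA 1, 0.0947 without Control 1 and 0.124 without Control 2 for HOXD-AS1, and 0.0975 without SLFN5 siRNA 1, 0.0506 without SLFN5 siRNA 2 and 0.259 without Control 2 for HOXA-AS2. HOXD-AS1 and HOXA-AS2 fall outside the naming rule and were chosen after their values were seen.

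Ranked by mean equalised count, not corrected for length, the 8 highest antisense transcripts had log2 changes between -0.0032 and 0.77 apart from MAGI2-AS3. C17orf76-AS1, a host transcript of small nucleolar RNAs, had 8113 and 10010.2 equalised counts after SLFN5 siRNA, against 6667 and 8635 in controls. Its groups overlapped and it did not pass (log2 change 0.25, SE 0.14). FGD5-AS1 had 2160.3 and 2566 after SLFN5 siRNA, against 1581 and 1428 in controls, without overlap (log2 change 0.65, SE 0.13, limma adjusted p = 0.00278). FGD5, an exchange factor gene best known in endothelium, was near 0 in every library, with 1.02 and 0.0195 equalised counts after SLFN5 siRNA and 1.73 and 1.52 in controls. OIP5-AS1, known in vertebrates as cyrano and for a site that binds the microRNA miR-7, had 1725 and 2243 after SLFN5 siRNA, against 1143 and 1509 in controls (log2 change 0.58, SE 0.16, limma adjusted p = 0.0181). Its limma adjusted p was 0.123 without SLFN5 siRNA 2 and 0.123 without Control 1, with a log2 change of 0.38 without Control 1.

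Among the other 4 of these 8, besides MAGI2-AS3, APCDD1L-AS1 and KIAA1984-AS1 rose. APCDD1L-AS1 had 829 and 1087 equalised counts after SLFN5 siRNA, against 479 and 645 in controls (log2 change 0.77, limma adjusted p = 0.00719, and 0.0528 without SLFN5 siRNA 2). KIAA1984-AS1 had 741 and 610.4 after SLFN5 siRNA, against 424 and 393 in controls (log2 change 0.72, limma adjusted p = 0.00493), and GENCODE 29 places 26.1% of its exon bases in exons of its sense gene. The groups did not overlap in either transcript. THAP9-AS1 (antisense to a gene derived from a DNA transposase) had 406 and 523 after SLFN5 siRNA, against 464 and 460.4 in controls (log2 change -0.0032), and SETD5-AS1 had 382 and 556 after SLFN5 siRNA, against 277 and 397 in controls (log2 change 0.47), and neither passed. The sense genes OIP5, KIAA1984, THAP9 and SETD5 did not pass, with log2 changes of -0.34, 0.82, 0.26 and -0.11.

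The remaining transcripts that rose were MMP24-AS1, C1RL-AS1, NOP14-AS1 and ZNF503-AS2. MMP24-AS1 had 470.2 and 375 equalised counts after SLFN5 siRNA, against 212 and 172 in controls (log2 change 1.13, SE 0.19, limma adjusted p = 0.00123). GENCODE 29 types MMP24-AS1 as protein-coding. The log2 changes of C1RL-AS1, NOP14-AS1 and ZNF503-AS2 were 1.09, 0.86 and 0.84, all 3 picked after their values were known. The limma adjusted p was 0.0906 without Control 2 for C1RL-AS1, 0.0680 without SLFN5 siRNA 1 for NOP14-AS1, and 0.128 without SLFN5 siRNA 1, 0.0792 without SLFN5 siRNA 2, 0.0723 without Control 1 and 0.240 without Control 2 for ZNF503-AS2.

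Genes of low level passed rarely in the whole table, so the antisense transcripts are given by range of level. Of 32 averaging 10 to 20 equalised counts, 1 rose and 0 fell, where 2.65% of all tested genes in that range rose and 1.81% fell, and the median log2 change was 0.21 against 0.06. Of 35 averaging 20 to 50, 5 rose and 0 fell, where 7.66% of all tested genes rose and 3.10% fell (median 0.46 against 0.07). Of 31 averaging 50 to 100, 6 rose and 1 fell, where 13.8% rose and 5.84% fell (median 0.39 against 0.15). Of 24 averaging at least 100, 9 rose and 1 fell, where 16.3% rose and 22.6% fell, and the median was 0.48 against -0.07 for all tested genes at that level. The median log2 change was above that of all tested genes in each of the 4 ranges. One group averaged under 10 for 15 of the 123 transcripts, the control group in 12 of them and the SLFN5 siRNA group in 3. Just inside the mean of 10 lay OSGEPL1-AS1 at 10.10, RHPN1-AS1 at 10.12 and CRYM-AS1 at 10.14 equalised counts, and just outside lay WWC2-AS2 at 9.98, SPTY2D1-AS1 at 9.60 and PRKAR2A-AS1 at 9.37. OSGEPL1-AS1 was the transcript not tested. Recovered reads per library and transcript ran between 2 and 11465 with a median of 39, and 97 of the 123 had at least 10 in every library.

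Where sense genes changed, more fell than rose. A sense gene of the same name was found for 116 of the 123, giving 115 partners, of which 106 were tested. Among them 16 rose (15.1%, against 13.3% of all tested genes) and 25 fell (23.6%, against 16.3%). Among all tested genes averaging at least 100 equalised counts, the shares were 16.3% higher and 22.6% lower, near those of the partners. The median log2 change of the partners was -0.08. The balance depends on the scaling, since 23 rose and 18 fell with library totals alone. It was 15 higher and 16 lower without Control 1, 9 higher and 15 lower without Control 2, and 6 higher and 5 lower without the intensity trend. In 105 pairs both members were tested, and the antisense change was above the sense change in 69, with a median difference of 0.44 on the log2 scale. Across these 105 pairs the log2 changes had a Pearson r of 0.12 and a Spearman rank coefficient of 0.09. These describe genes within the same 4 libraries, and overlapping genes share reads.

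**Figure D3:**
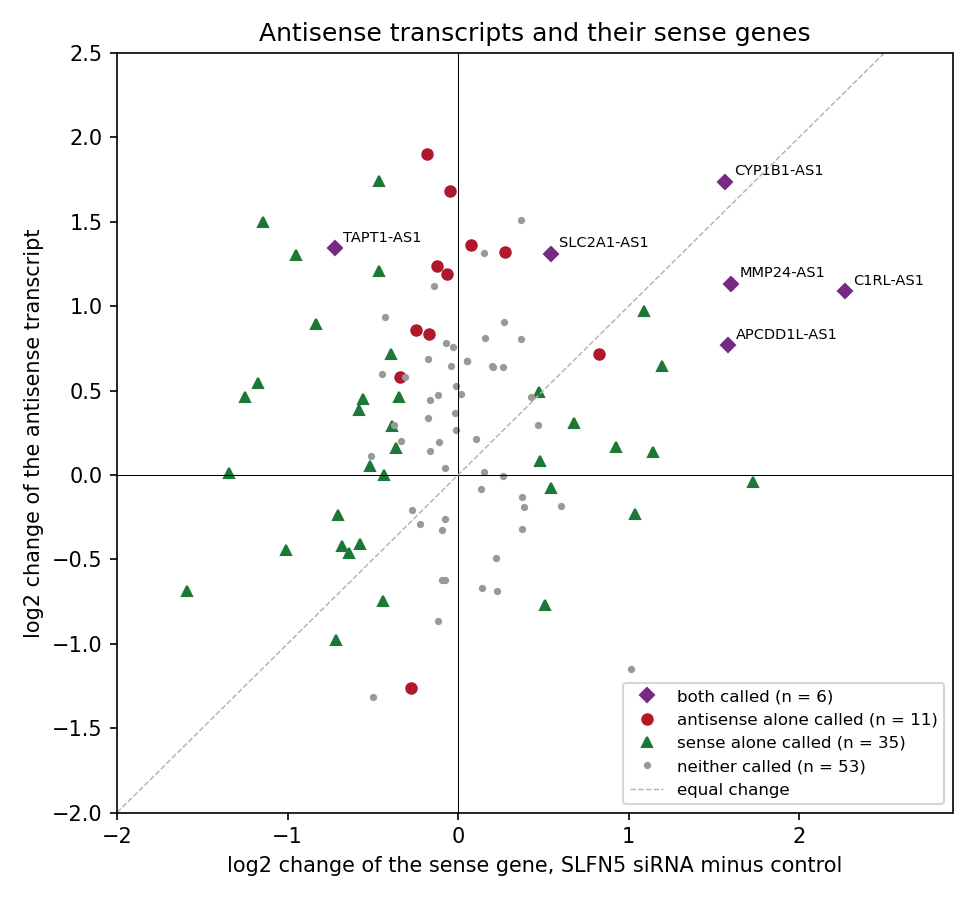
Log2 change (SLFN5 siRNA over control siRNA) of the sense gene on the x axis and of its antisense transcript on the y axis, for the 105 pairs with both tested. The points spread with an r of 0.12, and 69 of them lie above the line of equal change.

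Both partners rose in 5 pairs, and both fell in 0. The 5 became 3 without SLFN5 siRNA 1, 2 without Control 2 and 0 without the intensity trend. CYP1B1 had 654 and 406 equalised counts after SLFN5 siRNA, against 254 and 118 in controls (log2 change 1.57, 1.02 without Control 2), beside 1.74 for CYP1B1-AS1. MMP24, a membrane-bound matrix metalloproteinase, had 1714 and 1275 after SLFN5 siRNA, against 529 and 447 in controls (log2 change 1.60), and 14.5% of the exon bases of MMP24-AS1 lie in its exons. SLC2A1 had 15595 and 14282 after SLFN5 siRNA, against 11005 and 9511 in controls (log2 change 0.54, limma adjusted p = 0.0517 without Control 2). In these 3 the SLFN5 siRNA libraries lay above both controls for sense and antisense alike. C1RL, a protease related to complement C1r, and APCDD1L made up the other pairs, with log2 changes of 2.27 and 1.58. APCDD1L-AS1 shares no exon base with APCDD1L. The share of antisense exon bases in sense exons was 9.10% for CYP1B1-AS1, 3.80% for SLC2A1-AS1 and 3.36% for C1RL-AS1. Per kilobase of exon after SLFN5 siRNA, SLC2A1-AS1 stood at 0.611% of SLC2A1 and CYP1B1-AS1 at 4.79% of CYP1B1. The same measure was 22.6% for MMP24-AS1, 53.3% for C1RL-AS1 and 688% for APCDD1L-AS1. Reads from shared exon bases cannot be assigned to either gene, and their part in these joint rises was not tested.

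TAPT1 was the 1 pair with opposite calls. TAPT1 had 174 and 235 equalised counts after SLFN5 siRNA, against 342 and 326 in controls, and fell by 0.72 on the log2 scale (SE 0.20, limma adjusted p = 0.0168), while TAPT1-AS1 rose by 1.34. The groups of both genes were apart in all 4 libraries. The limma adjusted p of TAPT1 was 0.0889 without SLFN5 siRNA 1 and 0.0603 without Control 1, and that of TAPT1-AS1 was 0.0974 without SLFN5 siRNA 1, 0.0975 without SLFN5 siRNA 2, 0.0656 without Control 1 and 0.188 without Control 2. No pair had a lower antisense transcript with a higher sense gene. The antisense transcript rose alone in 10 pairs and fell alone in 1, and the sense gene rose alone in 11 and fell alone in 24, and neither passed in 53. Without Control 2 the sense gene fell alone in 14 pairs. A gene that passed beside a partner that did not is not thereby shown to differ from it.

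The largest differences within pairs came mostly from transcripts near the lower limit of level. The control means of DNAJC27-AS1, LRP4-AS1 and DICER1-AS1 lie under 10, so they reached the limit through the SLFN5 siRNA libraries, and CRYM-AS1 reached it through the control libraries. DNAJC27-AS1 had 18.4 and 16.3 equalised counts after SLFN5 siRNA, against 8.55 and 3.42 in controls (log2 change 1.50, not past the threshold), beside DNAJC27, a J-domain protein gene, at 88.9 and 62.1 after SLFN5 siRNA and 163 and 168 in controls (log2 change -1.15). LRP4-AS1 had 23.5 and 25.5 after SLFN5 siRNA, against 13.3 and 6.47 in controls, with a log2 change of 1.30 that did not pass, beside -0.95 for LRP4, the agrin receptor. DICER1-AS1 had 14.4 and 29.7 after SLFN5 siRNA, against 6.53 and 4.59 in controls, without overlap, and missed the threshold (log2 change 1.74, SE 0.61, limma adjusted p = 0.0507). DICER1, the ribonuclease that makes microRNAs, had 1382 and 1837 after SLFN5 siRNA, against 2017 and 2397 in controls (log2 change -0.46, limma adjusted p = 0.0357). For DICER1 the limma adjusted p was 0.226 without SLFN5 siRNA 1 and 0.207 without Control 2, and its log2 change without SLFN5 siRNA 1 was -0.26. CRYM-AS1 ran the other way, with a log2 change of -1.15 beside 1.01 for CRYM, a thyroid hormone-binding protein, and neither passed. ZEB1 had a log2 change of -0.18 beside 1.90 for ZEB1-AS1. VIM-AS1, chosen after its values were seen, had 54.3 and 92.2 equalised counts after SLFN5 siRNA, against 43.9 and 20.5 in controls, and narrowly missed the threshold (log2 change 1.21, limma adjusted p = 0.0503). VIM, the intermediate filament gene, had a log2 change of -0.46 that passed with a limma adjusted p of 0.0140, and of 0.0654 without SLFN5 siRNA 1, 0.0666 without SLFN5 siRNA 2, 0.0896 without Control 1 and 0.0554 without Control 2.

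Among partners that passed beside an antisense transcript that did not, changes ran in both directions. KIF9, a kinesin gene, rose by 1.73 on the log2 scale, and FOXN3 and RHPN1 by 1.14 and 1.09. SERTAD4, ATP6V0E2 and FLVCR1, a heme exporter gene, fell by 1.59, 1.34 and 1.25. All 6 were picked after their values were known.

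Antisense transcripts that rose were found among pairs with and without overlap, and no subset was tested against the share of all genes. Of all tested genes, 13.3% were higher and 16.3% lower (median log2 change -0.03). Of those averaging 10 to 100 equalised counts, 7.53% were higher and 3.37% lower (median 0.09). GENCODE 29, on GRCh38, holds 114 of the pairs, all 114 on opposite strands, 97 of them overlapping and 85 sharing exon bases, with a median of 4.59% of the antisense exon bases inside sense exons. Of 84 tested transcripts that share exon bases with the sense gene, 14 rose and 1 fell (median log2 change 0.46). Of 29 that share none, 5 rose and 0 fell (median 0.30). Of 17 in genes that do not overlap, 2 rose and 0 fell (median 0.34), and of 23 that share no exon base with any annotated gene, 4 rose and 0 fell (median 0.20). For those 23, 21 partners were tested, with 5 higher, 1 lower and a median of 0.28. The transcripts without shared exon bases are the ones whose reads can be assigned to 1 gene of the pair by exon position.

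The pairs were also divided by the distance between their starts. Of 78 tested transcripts that start within 1 kb of their sense gene's start, 12 rose and 1 fell (median 0.45), while 12 of their 78 tested partners rose and 21 fell (median -0.11). Of 35 that start farther away, 7 rose and 0 fell (median 0.39), and 4 of their 27 tested partners rose and 3 fell (median 0.14). In 24 of the 88 pairs with both RefSeq promoters the windows share bases, a median of 200 of 300. Within these 24, 2 antisense transcripts rose and 0 fell, while 3 sense genes rose and 9 fell. Beside these counts, 13.3% of all tested genes were higher and 16.3% lower, and of those averaging at least 100 equalised counts 16.3% and 22.6%. Neither the difference between near and far pairs nor that from all genes was tested.

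Per kilobase of exon, antisense transcripts were mostly rarer than their sense genes. In the 105 pairs with levels per kilobase and a tested sense gene, the median level of the antisense transcript was 15.9% of that of its sense gene after SLFN5 siRNA, against 11.0% in controls. This set leaves out HNRNPU-AS1, which has no exon length here, and includes OSGEPL1-AS1, which was not tested. The antisense transcript was above the sense gene per kilobase in 13 pairs after SLFN5 siRNA and in 12 in controls. The 9 sense genes too low to be tested are left out of these counts, among them FGD5 and DLGAP1, which stood far below their antisense transcripts. By GENCODE type, 84 of the 123 are antisense, 15 lincRNA, 15 processed transcript, 2 bidirectional-promoter RNA, 3 unitary pseudogene and 2 protein-coding, MMP24-AS1 and TOPORS-AS1, and 2 identifiers were not matched.

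A list of 35 factors holds genes known to cap, process, edit or degrade noncoding RNA and the Polycomb subunits EZH2, SUZ12 and EED. Of the 35, 15 fell (42.9%), 3 rose (8.57%) and 17 did not pass, with a median log2 change of -0.23. Among all tested genes averaging at least 100 equalised counts, 22.6% fell and 16.3% rose. Of the 10 EXOSC-named exosome subunits listed, 8 fell and 1 rose. DIS3, a catalytic exosome subunit, with 1294 and 1497 equalised counts after SLFN5 siRNA and 1390.2 and 1398 in controls, did not pass. EXOSC10, also catalytic and among the 8 that fell, had a log2 change of -0.35 (SE 0.11, limma adjusted p = 0.0316). NCBP2, the cap-binding subunit of the nuclear cap-binding complex, had 785 and 931 equalised counts after SLFN5 siRNA, against 2068 and 2206 in controls (log2 change -1.32, SE 0.13, limma adjusted p = 4.35e-05). SRRT (ARS2), which joins that complex to RNA degradation, had 1930.2 and 2114 after SLFN5 siRNA, against 3774 and 3827 in controls (log2 change -0.91, SE 0.11, limma adjusted p = 0.000153). EED, a Polycomb subunit, had 314 and 462 after SLFN5 siRNA, against 677 and 774 in controls (log2 change -0.92, SE 0.19, limma adjusted p = 0.00345). In all 3 both SLFN5 siRNA libraries lay below both controls. EXOSC6, an exosome subunit, went the other way, with 959 and 899 after SLFN5 siRNA, against 492 and 475 in controls (log2 change 0.94, SE 0.14, limma adjusted p = 0.000446). The others that rose were ZC3H18 and the decapping enzyme DCP2, at log2 changes of 0.60 and 0.59. The limma adjusted p was 0.0798 without SLFN5 siRNA 2 and 0.0526 without Control 1 for ZC3H18 and 0.117 without SLFN5 siRNA 2 and 0.0539 without Control 1 for DCP2, whose log2 change without SLFN5 siRNA 2 was 0.35. The list had 10 to 14 lower and 1 to 3 higher factors when a library was left out, 13 lower and 5 higher with library totals alone, and 2 lower and 1 higher without the intensity trend. Of the 10 EXOSC-named subunits, 4 fell without SLFN5 siRNA 1, 6 without SLFN5 siRNA 2, 5 without Control 1 and 4 without Control 2. A link between these levels and the antisense transcripts was not tested.

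**Figure D4:**
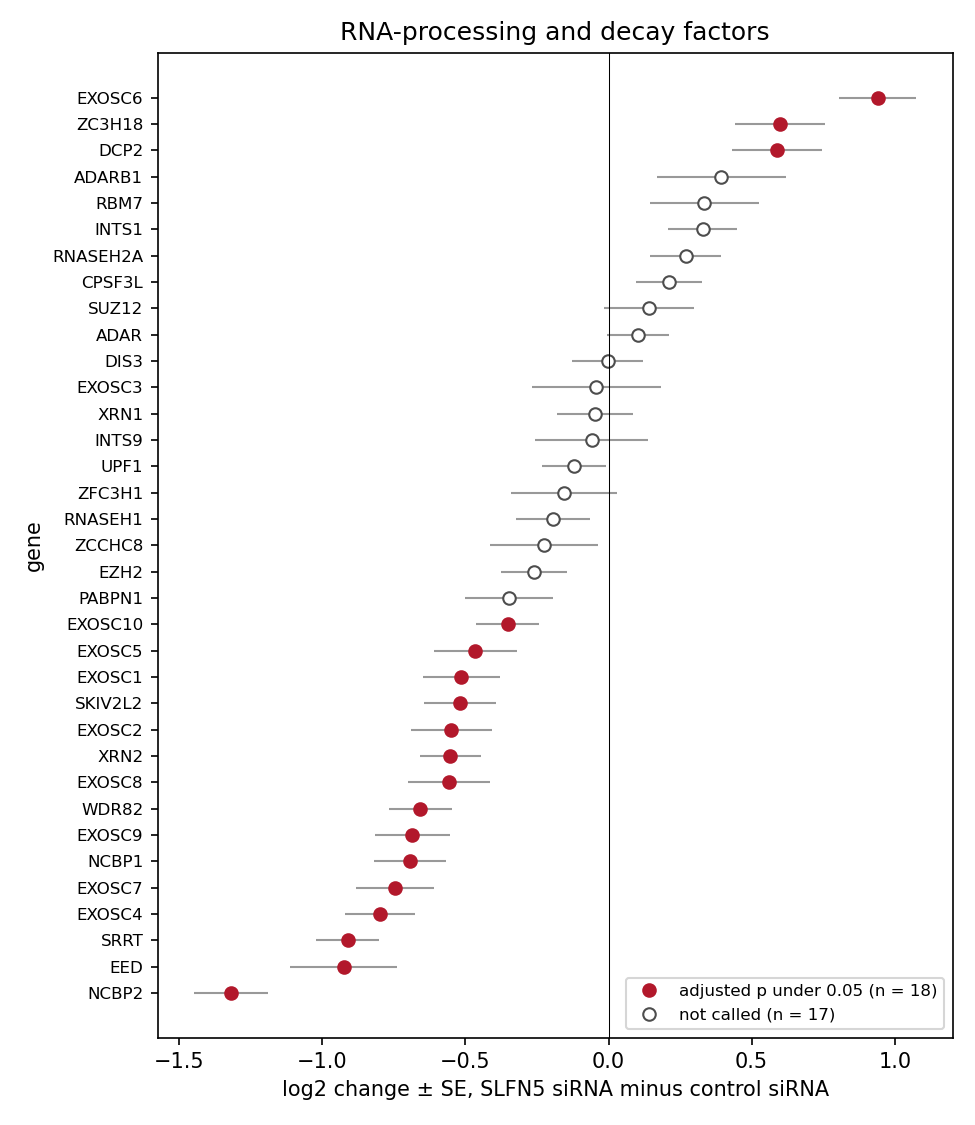
Log2 change of SLFN5 siRNA over control siRNA, with its standard error, for the 35 RNA processing factors. 15 of them passed below 0, with NCBP2 farthest at -1.32, and 3 passed above 0.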

How the data were processed

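The deposited table gives 1 value per gene and library, which the authors had made from read counts: it is a signal, the equalised count of edgeR, adjusted to a common library size, per the values of the deposited table and the submitters' processing notes, which name edgeR and hg19. The sources used here do not name the aligner, the counter or the annotation release. As for replicates, the design text speaks of triplicates, and the 4 libraries given here were analysed. Library preparation used a poly(A) kit, per the labels' protocols.

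Inverting that adjustment at a common dispersion of 0.016161 gave whole counts (tolerance 1e-06) for 230636 of 230636 values (100.0%), which give the depths. The planned test for any value that is not a raw count was used: limma 3.58.1 in R 4.3.3 on log2(value + 1), with an intensity trend, over the 15640 genes with at least 10 in at least 2 libraries, Benjamini-Hochberg adjustment and a threshold of 0.05. A log2 change is on that scale and understates the change of low genes; a fold is its antilog. The fit has 2 residual degrees of freedom and a prior of 9.60. Only members were read from it, and no list was tested. The script was checked on simulated counts, where it called increases more often than decreases. It called 48 of 50 genes simulated at a fold of 2 and 32 of 50 at 0.5. At a fold of 1.5 it called 17 of 50, and at 0.67 it called 10 of 50. Of 15293 genes simulated without change, it called 6.

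Strand, type and exon overlap came from GENCODE 29 (GRCh38), promoters from RefSeq (GRCh38.p14). For each antisense transcript and sense gene the first listed promoter was taken. The text names the 12 largest increases and all decreases past the threshold without overlap, the 8 most abundant transcripts, the 5 largest pair differences, their partners, and 4 processing factors. Alternatives were another pseudocount, filter, scaling, trend, block, voom and leaving out each library. Members and lists were chosen with earlier results of these data known. Python 3.11.15 with numpy 2.4.6, scipy 1.17.1, pandas 2.3.3 and matplotlib 3.10.9 did the rest.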

Additional observations from a re-analysis of the deposited data

How the results depend on the processing

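Depth limits the rarest transcripts, with as few as 2 recovered reads in a library, and 2 libraries a group limit every test. No named gene that passed changed sign under any alternative. The median of all tested genes turned from -0.03 to 0.085 with library totals, and the balance of sense partners, 16 higher and 25 lower, turned to 23 and 18 with library totals and to 6 and 5 without the trend. The cause of each change below was not tested. Leaving out each library in turn gave, against 2086 and 2544, 1346 to 1767 higher and 1588 to 2341 lower genes of all tested, lowest without Control 2, and for sense partners 9 to 18 higher and 15 to 22 lower, against 16 and 25. Of antisense transcripts, 12 to 18 were then higher and 1 to 3 lower, with a median log2 change of 0.33 to 0.44. Of pairs, 2 to 6 were both higher, 0 to 1 antisense higher with sense lower, and 14 to 21 sense lower alone. Of the 35 factors, 1 to 3 were then higher, and of -IT and -OT transcripts 0 to 2 were lower. Without the intensity trend, 672 genes were higher and 510 lower, with 8 antisense transcripts higher and 1 lower, 6 partners higher and 5 lower, 0 pairs both higher, 0 opposite, 5 sense lower alone, 1 factor higher and 2 lower, and 1 -IT or -OT transcript lower. The titles give library 1 of each group one shared identifier and library 2 another, without saying what it marks (correlation of their deviations 0.19), and with the replicate block 30 antisense transcripts were higher and 4 lower, 8 pairs both higher, 5 opposite, 5 factors higher, 3 -IT or -OT transcripts lower, and 3008 genes higher and 3695 lower. Pairs with antisense higher and sense lower, 1 in the main result, numbered 3 with a pseudocount of 5, 2 with a filter of 20 in 2 libraries and 3 with one on a mean of 10. The antisense median was 0.36 with a pseudocount of 5. Quantile normalization gave 4 antisense transcripts lower, 0 such pairs, a median of 0.30 and 1 -IT or -OT transcript lower. At a member mean of at least 50, 4 partners were higher and 10 lower, with 3 pairs both higher, 0 opposite and 10 sense lower alone. In pairs of genes that do not overlap, 2 antisense transcripts were higher and 0 lower (median 0.34), 3 partners higher and 2 lower, 1 pair both higher, 0 opposite and 2 sense lower alone. In 2 alternatives chosen after seeing the data, library totals in voom gave 1 antisense transcript lower, 2 opposite pairs, a median of 0.55, 5 factors higher and a median of 0.085 for all genes; members with no exon base shared with any gene gave 4 antisense transcripts higher and 0 lower (median 0.20), 5 partners higher and 1 lower, 1 pair both higher, 0 opposite and 1 sense lower alone.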

Other observations

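Transcripts named for an intron of a gene or for overlap with it (-IT or -OT and a number) carry the same kind of name as antisense transcripts. Of 11 tested, 0 rose and 0 fell in limma, against 13.3% higher and 16.3% lower among all tested genes. An unadjusted p under 0.05 was reached by 3 of the 11, against 18.6% higher and 22.0% lower among all tested genes. The median log2 change was -0.22. Fitted with voom on the recovered counts, 0 rose and 0 fell, and without SLFN5 siRNA 1 limma gave 2 lower. CRHR1-IT1, the most abundant, had 139 and 104 equalised counts after SLFN5 siRNA, against 128 and 153 in controls, and its groups overlapped. ST7-OT4, chosen after its values were seen, had 7.13 and 1.34 after SLFN5 siRNA, against 18.3 and 14.8 in controls, without overlap and without passing. Its mean was 4.23 after SLFN5 siRNA and 16.5 in controls, so it reached the level for testing through the control libraries, as did KCNQ5-IT1. KLF7-IT1 and ALMS1-IT1 reached that level through the SLFN5 siRNA libraries.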
